A study of Mus musculus with 6 samples.

Results

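The genes described here encode secreted defence proteins of the WAP disulfide core family (Wfdc genes and Slpi) and of the bactericidal/permeability-increasing (BPI) fold family (Bpif genes). They were taken by name from a table of FPKM (fragment counts scaled by transcript length and library size, computed by the authors) as the rows starting with Wfdc or Bpif, or named Slpi, and were selected on their measured level, which had to average 1 FPKM or more across all 6 libraries. Of 18708 rows in the table, 19 carry such a name and 11 reached that mean. These 11 were 6 Wfdc genes, 4 Bpif genes and Slpi. The libraries came from the stomach corpus of 6-month-old C57BL/6 mice, with 1 mouse per library. Of these, 3 were wild type (WT) and 3 had RUNX3, a RUNX-family transcription factor, with the point substitution R122C. For zygosity, sex and the making of the allele, nothing is given in the sources used here. The study asks how R122C alters stem cells and differentiation in the stomach.

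WAP domains are small folds held together by disulfide bonds. Several WAP proteins inhibit serine proteases such as neutrophil elastase, and several slow bacterial growth. Proteins with the BPI fold are related to the lipopolysaccharide-binding proteins BPI and LBP, and the shorter and longer PLUNC-type members are secreted onto mucosal surfaces, above all in the airway. In the stomach, Wfdc2 is known as a marker of metaplastic glands.

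Depth was recovered from the spacing of low FPKM values at about 31600000 to 44100000 fragments per library, so that 1 fragment of a transcript of 1000 nucleotides was worth 0.0227 to 0.0316 FPKM. These are estimates from annotated lengths, with no counting interval. The acid and pepsinogen genes that mark the corpus were present in all libraries, with Atp4a at 326 to 3617 FPKM and Pgc at 1537 to 97962. Correlations of log2 values across genes were 0.96 to 0.98 within WT and 0.92 to 0.98 within R122C. The library R122C 3 stood apart, with squamous forestomach markers summing to 805 FPKM against 0.44 to 54.0 FPKM in the other 5 libraries. Values without R122C 3 are given where leaving it out moved a gene reported as higher by more than 1.5 times or changed a direction. For Krt13, the values are given by library only.

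The genes lie in a few chromosomal groups, and the sequences just before their start sites are shown for 5 of them, because neighbours there had different levels. Of the 11 genes, 8 lie on chromosome 2, 4 in a Bpif cluster and 4 in a Wfdc and Slpi cluster, 2 (Wfdc17 and Wfdc18) on chromosome 11 and 1 (Wfdc1) on chromosome 8. All positions are in GRCm38, the assembly of mm10, from GENCODE M21. The sequences are from RefSeq (GRCm38.p6), which matched 10 of the 11 by symbol (not Wfdc1), and all 5 are on the plus strand, 5′ to 3′. Capitals mark a match to the RUNX motif TGTGGT or TGCGGT on either strand. The windows are chr2:154190568-154190817 for Bpifb1, chr2:154223492-154223741 for Bpifb5, chr2:153974695-153974944 for Bpifa6, chr11:83703806-83703990 for Wfdc17 and chr11:83708754-83709003 for Wfdc18.
Bpifb1: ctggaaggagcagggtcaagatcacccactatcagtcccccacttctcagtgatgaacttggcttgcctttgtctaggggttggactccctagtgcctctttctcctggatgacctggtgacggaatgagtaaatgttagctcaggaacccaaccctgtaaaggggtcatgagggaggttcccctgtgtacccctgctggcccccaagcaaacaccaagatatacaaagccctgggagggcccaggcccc
Bpifb5: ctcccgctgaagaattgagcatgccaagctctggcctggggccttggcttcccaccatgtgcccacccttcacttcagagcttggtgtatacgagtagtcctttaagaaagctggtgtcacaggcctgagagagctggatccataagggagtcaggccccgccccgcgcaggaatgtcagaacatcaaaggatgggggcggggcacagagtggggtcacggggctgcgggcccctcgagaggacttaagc
Bpifa6: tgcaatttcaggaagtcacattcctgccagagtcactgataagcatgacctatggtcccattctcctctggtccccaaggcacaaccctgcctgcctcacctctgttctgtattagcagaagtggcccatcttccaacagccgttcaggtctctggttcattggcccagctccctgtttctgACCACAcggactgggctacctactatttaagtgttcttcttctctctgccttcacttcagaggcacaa
Wfdc17: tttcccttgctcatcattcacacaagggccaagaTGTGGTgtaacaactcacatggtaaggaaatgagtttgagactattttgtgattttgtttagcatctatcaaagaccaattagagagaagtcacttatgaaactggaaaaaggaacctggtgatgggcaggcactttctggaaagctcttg
Wfdc18: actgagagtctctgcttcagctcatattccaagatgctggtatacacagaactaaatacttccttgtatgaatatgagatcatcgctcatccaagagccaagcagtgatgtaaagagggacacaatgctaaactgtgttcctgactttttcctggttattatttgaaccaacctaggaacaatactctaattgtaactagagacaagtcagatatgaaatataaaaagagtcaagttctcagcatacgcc

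Of the 10 promoters searched from 250 bases before to 50 bases after the start, using the RefSeq start nearest the GENCODE 5′ end, 2 held the RUNX motif, those of Bpifa6 and Wfdc17. The share among all 32851 promoters of that length was 22.41%. The interferon-response motif, GAAA followed after 2 bases by GAAA, occurred in 0 of the 10 and in 3.44% of all promoters, and the STAT motif TTCNNNGAA in 0 of the 10 and in 8.3%, while another RefSeq start of Bpifb1 has a match before it. Searches covered both strands. A match is a description of letters in this window and not a binding site.

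R122C corpus had higher levels of 8 of these 11 genes and lower levels of 0. The leading gene was Bpifb1, which was among the 24 most abundant rows of every R122C library and no higher than rank 1142 in WT. In R122C it was followed in mean level by Wfdc2 and Wfdc18. Slpi, Wfdc17 and Bpifb4 did not pass the test. Levels were compared as log2(FPKM + 1) with limma over the 11422 rows with a mean of at least 1 FPKM, and p-values adjusted by the Benjamini-Hochberg method had to fall below 0.05. In that fit 5.27% of all tested genes were higher in R122C and 0.832% lower (602 and 95 genes), and 426 and 195 with median-of-ratios scaling, 405 and 248 with quantile normalization and 575 and 202 without R122C 1. Of the 11 genes, 5 reached the mean of 1 FPKM only through R122C (Wfdc18, Bpifb5, Wfdc3, Bpifb4 and Bpifa6) and so had to differ. Their calls, and any count or median over all 11 genes, are a description only. Of the 6 with a mean of at least 1 FPKM in both groups, 4 were higher. All 3 R122C values lay above all 3 WT values in 4 of these 6 and in 20.3% of tested genes, and below them in 0 of the 11 and in 5.19% of tested genes. The median log2 fold change of the 6 was 1.52, and that of all tested genes 0.10. In bulk tissue, more cells that express a gene and more RNA per cell cannot be told apart.

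**Figure D1:**
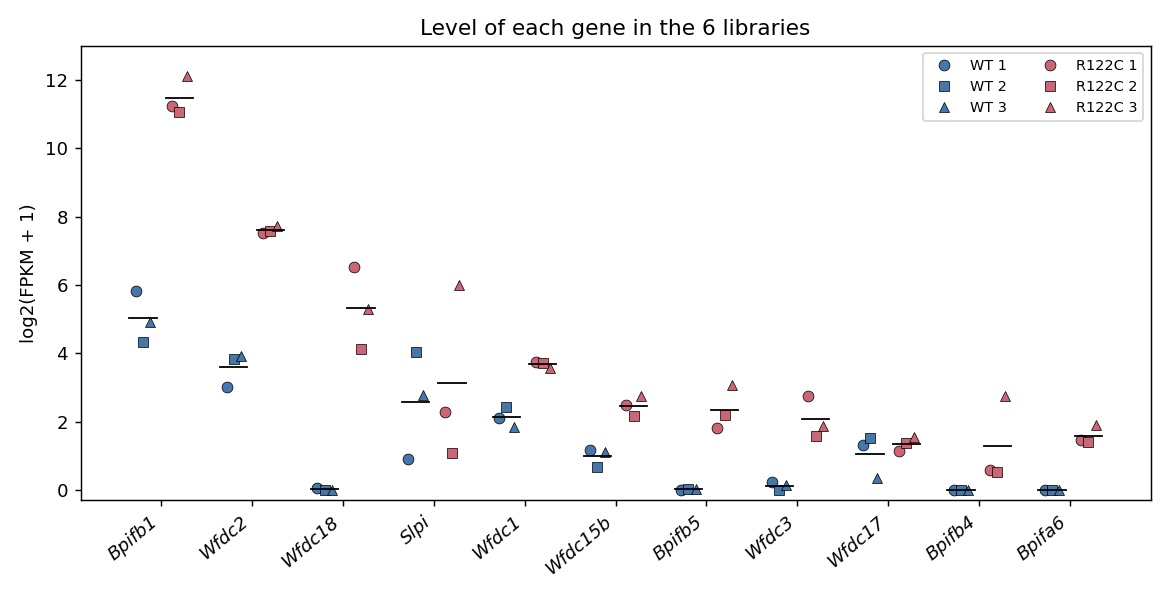
Level of each of the 11 genes as log2(FPKM + 1) in the 6 libraries, with WT in blue, R122C in red, a marker shape for each replicate and a bar at the mean of each group (n = 3). Bpifb1, Wfdc2 and Wfdc18 stand far above WT in all 3 R122C libraries, while the groups overlap for Slpi and Wfdc17.

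Bpifb1, a long PLUNC protein secreted by mucous cells of the airway (Lplunc1; chromosome 2, 154190818 to 154220369, plus strand, up to 16 exons), was the most abundant of the 11 genes. WT libraries 1 to 3 had 56.07, 18.97 and 29.37 FPKM of Bpifb1, and R122C libraries 1 to 3 had 2439.97, 2127.14 and 4427.18 FPKM. Every R122C library lay far above every WT library. The means were 34.8 ± 19.1 FPKM for WT and 2998 ± 1247 for R122C (SD, n = 3), 86.1-fold apart, with a limma log2 fold change of 6.45 ± 0.41 (SE, adjusted p = 0.000153). Ranked by FPKM within its library, Bpifb1 stood at 1142, 3084 and 2086 in the WT libraries and at 18, 24 and 11 in the R122C libraries. Bpifb1 made up 34.8% to 79.8% of the summed FPKM of the 11 genes in WT and 88.8% to 92.7% in R122C. That sum was 53.8 to 70.3 FPKM in WT and 2359 to 4775 FPKM in R122C. Without Bpifb1 the other 10 genes summed to 14.2 to 35.6 FPKM in WT and 232 to 348 FPKM in R122C, also without overlap.

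The other Bpif genes stood at far lower levels, from WT values at or near 0. Bpifb5, whose gene begins 3372 bases after the end of Bpifb1 on the same strand, had 0, 0.02 and 0.02 FPKM in WT libraries 1 to 3 and 2.52, 3.55 and 7.35 FPKM in R122C libraries 1 to 3. All R122C libraries were above WT, by a limma estimate of 2.34 ± 0.32 on the log2 scale (SE, adjusted p = 0.00484). Bpifa6 had values of 0 in each WT library and of 1.76, 1.65 and 2.73 FPKM in R122C, where 1 fragment of its 1572 nucleotides was worth about 0.0144 to 0.0198 FPKM. The groups were apart and Bpifa6 passed (limma adjusted p = 0.00675), and no ratio of means is given against values listed at 0. Bpifb4, a long member, was at 0, 0.01 and 0.01 FPKM in WT and at 0.50, 0.43 and 5.77 FPKM in R122C. Its values did not overlap, yet R122C 3 was 12.4 times the mean of the other R122C libraries, and Bpifb4 did not pass (limma log2 fold change 1.28 ± 0.55, SE, adjusted p = 0.239, and 0.54 with adjusted p = 0.176 without R122C 3). The pseudocount of 1 FPKM shrinks changes of genes this low. With a pseudocount of 0.1 the log2 fold changes were 5.20 for Bpifb5, 4.39 for Bpifa6 and 3.53 for Bpifb4. For Bpifa6 it was 1.59 with the pseudocount of 1, and with WT values at 0 its size depends on the pseudocount chosen.

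Wfdc2, a secreted WAP protein of epithelia (HE4 in humans; chromosome 2, 164562413 to 164568510, plus strand, up to 5 exons), was, with Wfdc1, among the most even of the genes called higher. It was at 7.03, 13.40 and 14.26 FPKM in WT and at 182.12, 189.66 and 209.57 FPKM in R122C. The 3 R122C libraries differed by only 1.15 times from lowest to highest, while for Bpifb1 that ratio was 2.08 and for Wfdc18 it was 5.56. The means were 11.6 ± 3.95 and 194 ± 14.2 FPKM (SD, n = 3), with a limma log2 fold change of 4.01 ± 0.26 (SE, adjusted p = 0.000153) that was 3.95 without R122C 3.

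Wfdc18 (Expi), a proteinase inhibitor-like WAP protein known from the mouse mammary gland, went from near absence in WT to a mean of 48.8 ± 38.7 FPKM (SD, n = 3). WT 1 had 0.04 FPKM, WT 2 and WT 3 are listed at 0, and R122C libraries 1 to 3 had 91.71, 16.49 and 38.21 FPKM. The highest library was R122C 1 here, not R122C 3. The limma log2 fold change was 5.30 ± 0.51 (SE, adjusted p = 0.00115), from 4.69 without R122C 1 to 5.90 without R122C 2, and 8.44 with a pseudocount of 0.1. Wfdc17 (Amwap), a WAP gene of macrophages and microglia, lies directly before Wfdc18 on the same strand, with a gap of 2746 bases. Wfdc17 was at 1.49, 1.89 and 0.27 FPKM in WT and at 1.19, 1.59 and 1.95 FPKM in R122C. The groups overlapped and Wfdc17 did not pass (limma log2 fold change 0.29 ± 0.33, SE, adjusted p = 0.699, and -0.07 without WT 3). Macrophage markers summed to 15.2 to 35.6 FPKM in WT and 30.7 to 62.9 FPKM in R122C, with Cd68 at 2.89 to 6.16 and 4.51 to 12.25 FPKM and Adgre1 at 0.25 to 1.75 and 0.68 to 1.34 FPKM. Of 5 tested, 1 was higher and 0 lower, beside 5.27% and 0.832% of all tested genes, with a median log2 fold change of 0.94. The higher marker was Cd14, at 0.80 to 1.59 FPKM in WT and 3.76 to 9.31 FPKM in R122C (limma adjusted p = 0.0224).

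In addition, 3 WAP genes of lower level rose. Wfdc1 (ps20), a secreted WAP protein first described in prostate stroma, was at 3.35, 4.38 and 2.63 FPKM in WT and at 12.37, 12.25 and 10.90 FPKM in R122C, as even as Wfdc2 among the R122C libraries with a highest to lowest ratio of 1.13. Its means of 3.45 ± 0.88 and 11.8 ± 0.82 FPKM (SD, n = 3) were 3.43-fold apart, with a limma log2 fold change of 1.54 ± 0.20 (SE, adjusted p = 0.0039). Wfdc15b (SWAM1), an antibacterial WAP protein of the mouse, was at 1.24, 0.59 and 1.17 FPKM in WT and at 4.65, 3.50 and 5.68 FPKM in R122C. The groups were apart, and Wfdc15b rose by 1.49 ± 0.24 on the log2 scale (SE, limma adjusted p = 0.0109, and 0.0587 without WT 2). Wfdc3 was at 0.17, 0 and 0.11 FPKM in WT and at 5.76, 2.02 and 2.64 FPKM in R122C. Its groups were apart, and it rose by 1.95 ± 0.32 (log2, SE, limma adjusted p = 0.0107, and 0.0576 without WT 2; 4.18 with a pseudocount of 0.1), and R122C 1 was again the highest library, as for Wfdc18.

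Slpi, the secretory leukocyte protease inhibitor that blocks neutrophil elastase and cathepsin G on mucosal surfaces, did not pass the test. WT libraries 1 to 3 had 0.88, 15.30 and 5.93 FPKM of Slpi, and R122C libraries 1 to 3 had 3.89, 1.14 and 63.17 FPKM. The groups overlapped, and R122C 3 alone was 25.1 times the mean of the other R122C libraries. The means were 7.37 ± 7.32 and 22.7 ± 35.0 FPKM (SD, n = 3), with a limma log2 fold change of 0.55 ± 1.20 (SE, adjusted p = 0.859). Without R122C 3 the log2 fold change was -0.88 (adjusted p = 0.572) and without WT 1 it was -0.28 (adjusted p = 0.945). With array weights, which lower the weight of variable libraries, Slpi was called lower in R122C (-2.34, limma adjusted p = 0.0108).

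Like Slpi, some genes were highest in R122C 3 among the rows below the mean of 1 FPKM. Just under it, Wfdc12 (Swam2) was at 0.23, 0.22 and 0.08 FPKM in WT and at 0.77, 1.00 and 2.40 FPKM in R122C, with a mean of 0.78 FPKM over the 6 libraries, while the members just above were Bpifa6 at 1.02 and Bpifb4 at 1.12. Wfdc5 reached 3.40 FPKM in R122C 3 and no more than 0.05 FPKM in the other 5 libraries, and Bpifc reached 1.19 FPKM in R122C 3 and no more than 0.10 in the others. Wfdc21 was at 1.26 FPKM in WT 2 and at or under 0.30 elsewhere, and the remaining 4 rows (Wfdc13, Wfdc6a, Bpifa5 and Wfdc16) stayed at or under 0.37 FPKM. The exons of Wfdc12 and Wfdc5 overlap those of a gene on the other strand, and the sources used here do not give strandedness, so their reads cannot be told apart from it. When every row of the table was fitted with no filter, the same 8 genes were higher. They were 8 of the 19 named rows (42.1%), beside 2.28% of all 18708 rows, and 0 of the 8 rows under 1 FPKM passed. No row of the table is 0 in every library, so having a row may itself depend on level. The 8 genes include Wfdc18, Bpifb5, Wfdc3 and Bpifa6, which reached a mean of 1 FPKM only through R122C. The share of 42.1% is therefore a description only. GENCODE M21 annotates 33 genes of these names, of which 14 have no row in the table used here, among them Bpifa1 and Bpifa2.

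Squamous markers moved with the genes that were high in R122C 3. All 10 listed squamous forestomach markers had their highest value in R122C 3. Krt5, a basal keratin, reached 42.9 FPKM in R122C 3 and no more than 1.70 in the other 5 libraries, and Krt14 63.3 and no more than 1.18. Krt13, a keratin of upper squamous layers, had 9.17, 49.64 and 300.87 FPKM in R122C libraries 1 to 3 and 0.32 to 3.77 FPKM in WT. Krt13 was called higher in R122C (limma log2 fold change 4.48 ± 1.05, SE, adjusted p = 0.043). Of 7 tested squamous markers, 1 was higher and 0 lower, beside 5.27% and 0.832% of all tested genes. Lor, Krt5, Krt4, Krt6a and Krt14 reached the mean of 1 FPKM only through R122C, so this count is a description only. The list summed to 0.44, 13 and 2.05 FPKM in WT libraries 1 to 3 and to 17.5, 54.0 and 805 FPKM in R122C. WT 2, with the highest squamous sum among the WT libraries, also had the highest Slpi there. R122C 2 had a higher squamous sum than R122C 1 and less Slpi, but that order rested on Krt13, at 49.64 of 54.0 FPKM. Sprr3 and Lor were higher in R122C 1 (3.32 and 2.09 FPKM) than in R122C 2 (0.11 and 0.21 FPKM). Krt14 and Krt6a were lower in R122C 1 (0.24 and 0.29 FPKM) than in R122C 2 (0.97 and 1.02 FPKM). The part of the squamous markers in the Slpi values was not tested. The 8 genes called higher were also called higher without R122C 3, with log2 fold changes from 1.35 for Wfdc15b to 6.13 for Bpifb1.

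**Figure D2:**
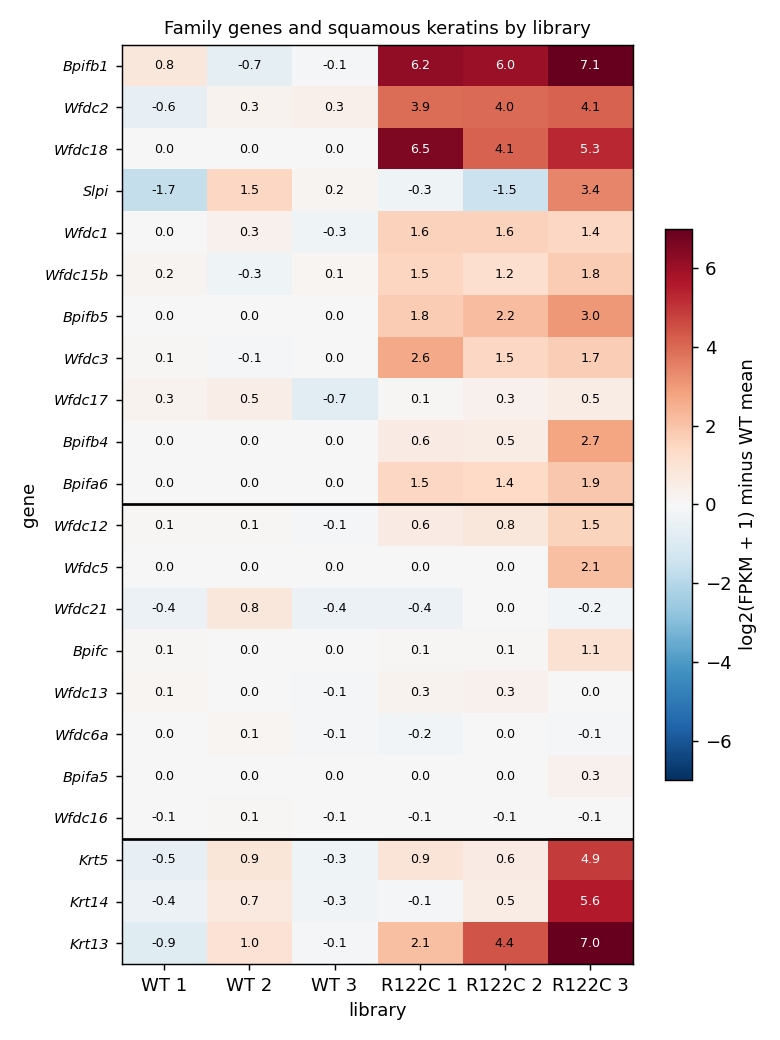
Log2(FPKM + 1) minus the WT mean for the 11 genes (top), the 8 rows of the same families under a mean of 1 FPKM (middle) and 3 squamous keratins (bottom), by library, with red for higher and blue for lower. Bpifb1, Wfdc2 and Wfdc18 are red in all 3 R122C libraries, whereas Slpi, Bpifb4, Wfdc5 and the keratins Krt5 and Krt14 are strongest in R122C 3.

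**Figure D3:**
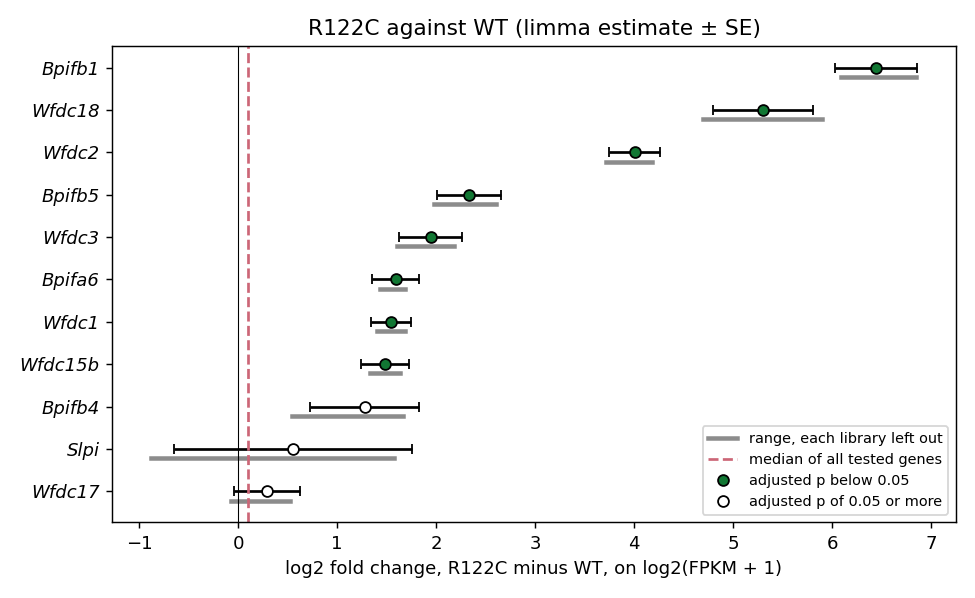
Limma log2 fold change of each gene, R122C minus WT on the log2(FPKM + 1) scale, with its SE (points and error bars), the range over fits leaving out each library in turn (grey bars) and the median of all tested genes (dashed line, 0.10). The 8 filled points passed an adjusted p of 0.05, and the grey bars of Slpi and Wfdc17 reach across 0.

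Of 20 other tested genes within 100 kb of any of the 11, 0 were called higher and 0 lower, which is near the share of all tested genes (5.27% and 0.832%). In the Wfdc and Slpi cluster on chromosome 2 this was 0 of 13. Among them were Sdc4, near Slpi, with WT libraries averaging 55.9 ± 5.63 FPKM and R122C libraries 65.7 ± 9.27 (SD, n = 3, limma adjusted p = 0.557), and Pigt, near Wfdc2, with 64.9 ± 23.1 and 95.7 ± 31.0 FPKM (adjusted p = 0.346, and 0.0415 with a replicate block and 0.0436 with array weights). The largest of the 20 estimates in size was that of Ube2c, a mitotic ubiquitin-conjugating enzyme near Wfdc3, at 0.88 ± 0.45 (SE, limma adjusted p = 0.325, and 0.0013 with array weights). In the Bpif cluster 1 other gene was tested, Cdk5rap1, with a log2 fold change of -0.22 ± 0.34 (SE, adjusted p = 0.791) that was 0.04 without WT 1 or R122C 3. No window of 50 nucleotides in the annotated transcripts of the 11 genes occurs in a transcript of another gene, and 0 rows of the table repeat their values.

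**Figure D4:**
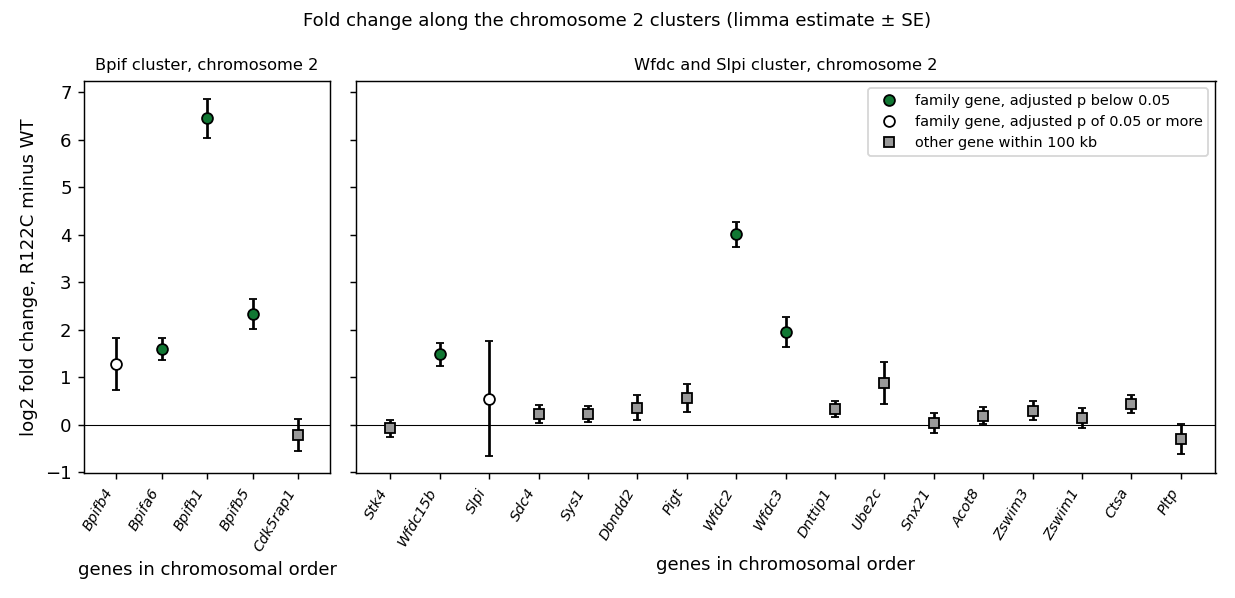
Limma log2 fold change (R122C minus WT, ± SE) of tested genes in chromosomal order along both chromosome 2 clusters, with circles for the Bpif, Wfdc and Slpi genes and grey squares for other genes within 100 kb. The filled circles, which passed, stand above squares that lie between -0.29 and 0.88.

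Genes outside the families with the closest values were sought among the tested genes, as a description. The measure was the root mean square difference of log2(FPKM + 1) minus the WT mean over the 6 libraries. Unnamed gene models, Rik clones and immunoglobulin and T cell receptor segments were left out. A change of like size weighs heavily in this measure, and the order of the R122C libraries can differ. Closest to Bpifb1 were Pigr, which carries IgA across epithelium, at a difference of 0.49, then Gkn3, a gastrokine of mucous neck cells, at 0.63 and the water channel Aqp5 at 0.89. Pigr was at 1.85 to 2.78 FPKM in WT and 256 to 452 FPKM in R122C. Aqp5 was lowest among the R122C libraries in R122C 3 (96.95 FPKM), where Bpifb1 was highest. Closest to Wfdc18 were Gkn3 at 0.61, the sialyltransferase St3gal4 at 0.80 and the kallikrein Klk1 at 0.81. Gkn3 had R122C 1 as its highest library (3937 FPKM, against 1745 and 2581) in the same order as Wfdc18. Closest to Wfdc2 were Atp6v0d2, a proton pump subunit, at 0.26, the interferon-induced Ifi44 at 0.32 and the adrenergic receptor Adra2a at 0.41. Closest to Wfdc15b were Prss53 (0.06), Enpp3 (0.08) and Tlr3 (0.10), and closest to Wfdc1 were S100a13 (0.17), Hepacam2 (0.19) and Wdr72 (0.20). Closest to Wfdc3 were Lox (0.19), Gprc5b (0.21) and Hapln4 (0.24), and closest to Bpifa6 were Cd9 (0.05), Matk (0.13) and Kcnk1 (0.14). Closest to Bpifb5 were Aspa (0.17), the peptidoglycan recognition protein Pglyrp1 (0.21) and Dkkl1 (0.23). Mucous neck markers moved with the genes called higher, with 6 of 6 higher beside 5.27% of all tested genes. Cftr, at 0.03 to 0.06 FPKM in WT, reached the mean of 1 FPKM only through R122C. Aqp5 was at 1.16 to 2.90 FPKM in WT, so these 2 were low in WT corpus. Gkn3 and Aqp5 are also among the closest genes above. Which cells carry the transcripts of this list was not tested. The markers summed to 3919 to 5653 FPKM in WT and 20443 to 29124 FPKM in R122C, and their part in the result was not tested. Among them the mucin Muc6 rose by 4.35 on the log2 scale (3.63 without WT 2), and the trefoil factor Tff2 rose by 2.16 (limma adjusted p = 0.00741) and did not pass without WT 2 (0.0576) or with no filter (0.21).

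Other secreted defence genes were higher in part. Of 13 tested secreted antimicrobial genes, 5 rose and 0 fell, with a median log2 fold change of 1.57. Of all tested genes, 5.27% were higher and 0.832% lower. Reg3g, Sftpd, Reg3b, Ltf and S100a9 reached the mean of 1 FPKM only through R122C, so the count and median are a description only. The genes that rose included Pigr, at 6.75 ± 0.25, the bactericidal lectin Reg3g at 4.81 ± 0.49 and surfactant protein D (Sftpd) at 3.52 ± 0.48 (SE), or 2.88 without R122C 3. Reg3g was at 0.30, 0.16 and 0.47 FPKM in WT and at 13.78, 54.81 and 58.85 FPKM in R122C (limma adjusted p = 0.00151), and its log2 fold change was 5.47 without R122C 1. The lysozyme gene Lyz2 did not pass, at 38.89, 23.81 and 6.58 FPKM in WT and at 31.80, 27.07 and 11.83 FPKM in R122C (limma adjusted p = 0.891), with a log2 fold change of 0.22 that was -0.47 without WT 3 and -0.045 without R122C 1. Among relatives by fold outside the naming rule, Pltp, a phospholipid transfer protein of the BPI family, was the only 1 tested and did not pass (limma log2 fold change -0.29, adjusted p = 0.682), while Bpi stayed at or under 0.02 FPKM and Lbp at or under 0.60 FPKM.

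Serine protease inhibitors of other folds and serine proteases were also higher in part. Of 12 tested inhibitors, 4 rose and 0 fell, beside 5.27% and 0.832% of all tested genes, with a median of 0.88. Spink5, which did not pass, reached the mean of 1 FPKM only through R122C, so this count and median are a description only. Spink4, a Kazal-type protein of mucous cells, was at 71.93, 141.47 and 171.53 FPKM in WT and at 522.04, 1241.76 and 708.08 FPKM in R122C, with no overlap (log2 fold change 2.67 ± 0.40, SE, limma adjusted p = 0.00699). Serpinb1a, an inhibitor of neutrophil serine proteases, rose by 1.47 ± 0.25 (SE, limma adjusted p = 0.0129, and 0.0576 with median-of-ratios scaling), and Serpina3n by 3.50 ± 0.58 (SE, adjusted p = 0.0117, and 0.0547 without WT 2 and 0.0518 with no filter), or 2.75 without R122C 3. Of 16 tested serine proteases, 8 rose and 0 fell, beside 5.27% and 0.832% of all tested genes, with a median of 1.36. The tissue kallikrein Klk1 rose by 5.41 ± 0.38 and Hgfac, the activator of hepatocyte growth factor, by 3.56 ± 0.21 (SE, limma adjusted p = 0.00024 and 0.000128). The mast cell protease Mcpt2 rose by 2.85 ± 0.63 (SE, limma adjusted p = 0.0342) and did not pass without WT 1 (0.0909), WT 2 (0.135) or R122C 1 (0.0508), nor with median-of-ratios scaling (0.0827), quantile normalization (0.0749), robust empirical Bayes (0.0903) or no filter (0.0993). Without R122C 3 it rose by 2.10. Mast cell markers summed to 35.5 to 73.1 FPKM in WT and to 187, 127 and 910 FPKM in R122C libraries 1 to 3. Of 7 tested mast cell markers, 4 were higher and 0 lower, beside 5.27% and 0.832% of all tested genes. Among them the chymase Cma1 rose by 2.78 and the carboxypeptidase Cpa3 by 1.98 (limma adjusted p = 0.00892 and 0.0322). Cpa3 did not pass under 7 alternatives, with adjusted p from 0.0607 to 0.115. Mcpt1 (log2 fold change 3.28), Mcpt4 (1.04) and Kit (-0.49) did not pass (limma adjusted p = 0.153, 0.119 and 0.455). Transcripts of 2 neutrophil targets of these inhibitors were near 0, with Elane no higher than 0.05 FPKM and Prtn3 no higher than 0.09 FPKM. Ctsg, which encodes cathepsin G, has no row. Protein was not measured, so transcript levels do not tell whether the proteases were present. The 8 neutrophil markers summed to 0.33 to 2.60 FPKM in WT and 4.14 to 21.7 FPKM in R122C. Of 2 tested, 1 was higher, beside 5.27% of all tested genes. The marker that rose was Retnlg, at 0.26 to 0.39 FPKM in WT and 2.72 to 6.86 FPKM in R122C (limma adjusted p = 0.00754). S100a9 did not pass (adjusted p = 0.504). Retnlg and S100a9 reached the mean of 1 FPKM only through R122C. The markers Ly6g and Mpo were no higher than 0.05 FPKM.

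Markers of other tissues that express these families were low. The 3 airway markers with a row, among them the club cell genes Scgb1a1 and Scgb3a1, summed to 0.32 to 0.59 FPKM in WT and 0.22 to 0.67 FPKM in R122C. Of the salivary gland list only Amy1 has a row, at 3.18 to 7.45 FPKM in WT and 0.64 to 6.08 FPKM in R122C (limma adjusted p = 0.645). Jchain and Mzb1 of plasma cells had R122C values that all lay above WT and did not pass (limma adjusted p = 0.0812 and 0.127). Mzb1 reached the mean of 1 FPKM only through R122C. The T and NK cell markers summed to 0.57 to 0.96 FPKM in WT and to 0.59 to 6.11 FPKM in R122C, where R122C 3 was highest for Cd3e (0.86) and Cd3g (1.67). Pit markers summed to 112323 to 255931 FPKM in WT and 56731 to 83275 FPKM in R122C. Of 6 tested, 0 were higher and 2 lower, beside 5.27% and 0.832% of all tested genes. The mucin Muc5ac was lower (limma log2 fold change -2.70), while Gkn1 did not pass (-1.51, adjusted p = 0.172). Chief cell markers summed to 111225, 34913 and 58450 FPKM in WT and to 13733, 26301 and 1594 FPKM in R122C, without overlap and lowest in R122C 3, and 0 of 4 passed. The pepsinogen gene Pgc had a log2 fold change of -2.79 ± 0.96 and the chitinase gene Chia1 one of -4.80 ± 1.62 (SE, limma adjusted p = 0.143 and 0.137), with all R122C values below WT, and Chia1 was -2.55 without R122C 3 (adjusted p = 0.0376). Pga5, another pepsinogen gene, had 0.81 (adjusted p = 0.393). Parietal markers summed to 9214, 4513 and 6827 FPKM in WT and to 5501, 4253 and 1052 FPKM in R122C, again lowest in R122C 3, and 0 of 5 passed, with Atp4a at -1.31 and Atp4b at -1.17 (log2, limma adjusted p = 0.306 and 0.322). The part of these cell types in the results was not tested.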

How the data were processed

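RNA of stomach corpus tissue was measured in 6 mice, 3 WT and 3 R122C. The deposited table gives FPKM values, computed by the authors, with 2 decimals. Per the submitters' processing notes, STAR, featureCounts and mm10 were used; versions, settings and the step from counts to FPKM are not known here. FPKM columns summed to 581276 to 716992, so they are not on a common total. A spreadsheet date replaces the gene name in 26 rows, which were tested and not named.

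Rows with a mean of at least 1 FPKM (11422) were compared as log2(FPKM + 1) with limma 3.58.1 in R 4.3.3 (all 6 libraries, no covariate, trended empirical Bayes, two-sided tests). P-values were adjusted over all tested rows by Benjamini and Hochberg's method, with a threshold of 0.05. Fold changes are on this scale and understate changes of low genes. The test was checked on simulated data. Depth was estimated where FPKM multiplied by annotated length showed a common step in genes with 1 transcript, at a limit of 1000 nucleotides (1500 gave 31900000 to 44600000 fragments).

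The genes and gene lists were chosen with earlier results of these data known. All members are named, with the 3 rows next below 1 FPKM, up to 3 called genes per list and direction, the leading 2 markers of each marker list and the 3 closest genes of each called member. Any other gene named was chosen after its values were seen. Alternatives were a pseudocount of 0.1, no filter, 3 scalings, robust empirical Bayes, array weights, a replicate block and leaving out each library, with the tested rows kept the same except under no filter. Figures were drawn with matplotlib 3.10.9.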

Additional observations from a re-analysis of the deposited data

How the results depend on the processing

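The number of the 11 genes called higher was 8 under every alternative except that leaving out each library in turn gave 6 to 8 (6 without WT 2), and the number called lower was 0 except for 1 with array weights (Slpi, -2.34), a fit whose weight estimation stopped before converging. Of 154 single values for the 11 genes, 148 kept their direction and side of the threshold, 2 (Wfdc15b and Wfdc3 without WT 2) no longer passed and 4 changed sign, for Slpi (-2.34 with array weights, -0.28 without WT 1, -0.88 without R122C 3) and Wfdc17 (-0.069 without WT 3), neither of which passed as reported; leaving out each library gave -0.88 to 1.57 for Slpi and -0.069 to 0.52 for Wfdc17. Of 518 values for 37 other genes of the lists and neighbours, 474 kept both, 27 no longer passed, 11 newly passed and 6 changed sign, for Amy1 (0.39 with array weights, 0.11 without R122C 3; leave-one-out range -0.95 to 0.11), Lyz2 (-0.47 without WT 3, -0.045 without R122C 1; range -0.47 to 0.73) and Cdk5rap1 (0.042 without WT 1, 0.04 without R122C 3; range -0.51 to 0.042). Over all tested genes, 602 higher and 95 lower became 1259 higher with rescaling to a common total, 195 lower with median-of-ratios scaling, 248 lower with quantile normalization, and 3812 higher and 1697 lower with array weights. Leaving out each library gave 239 to 575 higher and 16 to 202 lower. The median change of all tested genes, 0.10, shifted by -0.10, -0.16 and 0.19 with median-of-ratios scaling, quantile normalization and rescaling to a common total. With a pseudocount of 0.1 Wfdc18 (8.44) changed more than Bpifb1 (6.49). The cause of these differences was not tested. With a replicate block 1119 genes were higher and 259 lower, and 8 of the 11 genes were higher. Deviations of same-numbered libraries correlated at 0.47, 0.02 and 0.37, and those of differently numbered libraries at -0.42 to 0.11. WT 2 correlated better with R122C 3 (0.11) than with R122C 2. Estimated depth fell from number 1 to number 3 in both groups, from 42600000 to 31600000 fragments in WT and from 44100000 to 32100000 in R122C. Whether the numbers pair the mice was not tested, and the fit as reported has no term for the number. With 3 mice a group and values near 1 fragment in WT, the size of change of Wfdc18, Bpifb5, Bpifb4 and Bpifa6 is poorly fixed.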
